A study of Mus musculus with 8 samples.

Results

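The Hox cluster genes are the homeobox genes of the HoxA, HoxB, HoxC and HoxD clusters, taken here as every gene of the deposited table whose symbol is Hox, a cluster letter from a to d and a number. This rule found 39 of the 22274 genes in the table, with 11 in cluster A, 10 in B, 9 in C and 9 in D. They were measured by bulk RNA sequencing of mouse kidney cells of the line RFB, which the labels give as a fibroblast. All 8 libraries came from cells given TGF-β, a cytokine that drives matrix production, with 4 libraries from TGF-β alone and 4 from TGF-β and chaetocin. Chaetocin is a compound from fungi that is used to block SUV39-type histone H3 lysine 9 methyltransferases and that also acts on redox enzymes. Neither doses nor times are given in the sources used here, no library without TGF-β was analysed here, and the knockdown cells of the series' design text appear in no label of these libraries. RFB is a single cell line, and nothing in the labels says that the libraries of a group came from separate cultures, so every p-value measures the spread between these libraries, which may be technical.

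With chaetocin Hoxa2, Hoxa3, Hoxb2 and Hoxb3, towards the anterior ends of clusters A and B, were lower, the genes of cluster C from Hoxc6 to Hoxc11 were lower, and the tested genes of cluster D from Hoxd8 to Hoxd13 were higher. Hoxa2, Hoxa3, Hoxb3, Hoxa4 and Hoxc11 were at less than 50% of their level with TGF-β alone, and Hoxd10 was at 2.19 times its level. Hoxd13, with 2 reads in 4 libraries under TGF-β alone, had 117 reads with chaetocin. Hoxa5, Hoxa6, Hoxa7, Hoxb4, Hoxb5, Hoxc4 and Hoxc5, numbered 4 to 7, were not called by edgeR on counts.

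Hox proteins are transcription factors that bind DNA through a homeodomain and give cells their position along the body axis. Within a cluster the genes lie in the order of their paralog numbers, and those with low numbers are as a rule expressed further towards the head than those with high numbers, a relation known as colinearity. Polycomb and Trithorax complexes keep the clusters off or on, cells keep much of their Hox pattern in culture, and in the embryonic kidney the paralogs numbered 10 and 11 pattern the stroma and the nephron-forming mesenchyme.

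The bases just before the start of 5 genes on which the results turn are shown here, as Hoxa2 and Hoxd4 were among the genes that fell and Hoxd8, Hoxd10 and Hoxd13 among those that rose. Each is the 250 bases before the RefSeq start in GRCm38.p6, on the gene's own strand, and holds no annotated exon. Capitals mark the letters CCAAT (bound by NF-Y), an E-box spelled CACGTG, the promoter element spelled TATAAA near many start sites, and TGATNNAT (a motif of Hox and Pbx proteins bound together), on either strand. The genes shown and the motifs were chosen after the expression values were seen.
Hoxa2: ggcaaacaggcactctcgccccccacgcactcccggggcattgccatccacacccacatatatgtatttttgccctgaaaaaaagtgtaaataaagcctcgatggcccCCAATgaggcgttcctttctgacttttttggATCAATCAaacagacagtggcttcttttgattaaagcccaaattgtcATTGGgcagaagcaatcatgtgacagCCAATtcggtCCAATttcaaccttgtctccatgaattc
Hoxd4: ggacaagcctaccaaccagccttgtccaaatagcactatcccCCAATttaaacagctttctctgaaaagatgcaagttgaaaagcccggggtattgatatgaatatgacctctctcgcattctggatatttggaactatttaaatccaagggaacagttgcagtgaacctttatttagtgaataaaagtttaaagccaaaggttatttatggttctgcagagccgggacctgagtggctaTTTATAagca
Hoxd8: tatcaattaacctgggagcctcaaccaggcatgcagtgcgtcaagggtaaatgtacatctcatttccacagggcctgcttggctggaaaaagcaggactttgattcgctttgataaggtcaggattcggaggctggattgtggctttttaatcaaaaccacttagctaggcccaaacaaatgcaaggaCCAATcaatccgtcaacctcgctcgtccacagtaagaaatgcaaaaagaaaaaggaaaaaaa
Hoxd10: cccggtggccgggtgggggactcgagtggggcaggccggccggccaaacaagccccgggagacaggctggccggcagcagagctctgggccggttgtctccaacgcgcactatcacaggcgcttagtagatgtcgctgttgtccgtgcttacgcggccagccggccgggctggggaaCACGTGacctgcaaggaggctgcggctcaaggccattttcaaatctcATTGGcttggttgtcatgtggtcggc
Hoxd13: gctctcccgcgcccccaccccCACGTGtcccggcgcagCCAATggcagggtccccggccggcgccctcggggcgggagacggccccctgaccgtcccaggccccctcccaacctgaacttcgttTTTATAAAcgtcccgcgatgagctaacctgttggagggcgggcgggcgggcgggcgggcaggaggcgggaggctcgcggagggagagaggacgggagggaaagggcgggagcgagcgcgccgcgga
The windows lie at chr6:52164832-52165081 on the minus strand for Hoxa2 and, on the plus strand, at chr2:74721728-74721977 for Hoxd4, chr2:74704365-74704614 for Hoxd8, chr2:74691641-74691890 for Hoxd10 and chr2:74667975-74668224 for Hoxd13.

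The Hoxa2 window holds 4 CCAAT letters and 1 TGATNNAT match, and the Hoxd13 window holds the E-box letters, 1 CCAAT and, as overlapping matches on both strands, TATAAA. Hoxd10, the other posterior gene shown, also holds the E-box letters and 1 CCAAT. Among the 5 windows shown, CG pairs numbered 6 in Hoxa2, 3 in Hoxd4, 6 in Hoxd8, 20 in Hoxd10 and 31 in Hoxd13. Other Hox windows did not keep to such an order by position. Hoxa5 held 28 and Hoxa6 24, while of the posterior genes Hoxa13 held 35, Hoxd12 10 and Hoxa9 3. RefSeq held a start for 22 of the 39 genes, in 24 windows, of which 14 hold no annotated exon. CCAAT was present in 58.3% of these windows and in 33.8% of all 32851 promoters of the same length. CACGTG was present in 16.7% of the Hox windows against 6.02% of all, TATAAA in 16.7% against 12.4%, and TGATNNAT in 16.7% against 7.68%. CCGCCC (GC box) was present in 41.7% against 32.7%, CAGCTG (another E-box) in 12.5% against 13%, TGANTCA (AP-1) in 4.17% against 6.75%, and TGACGTCA (CRE) in 0 of the 24 windows against 1.55%. The median ratio of observed to expected CG pairs was 0.721 in the Hox windows and 0.374 over all promoters. These matches describe the letters of the windows and are not evidence of binding.

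Library totals were 20135312 to 23664084 counts with TGF-β alone and 14421225 to 22591935 with chaetocin, where replicate 1 was deeper than the other 3. The limit that a count of 0 allows, 3 counts, corresponds to 0.128 to 0.200 CPM (read counts scaled to the library's TMM-adjusted size) depending on the library. Markers of the labelled cell type were mixed, where 80.7% of all genes tested were called: of 10 fibroblast genes, 2 were called higher and 5 lower, their summed level went from 1436 to 1521 CPM with TGF-β alone to 508.6 to 650.5 with chaetocin, and under TGF-β alone Dcn and Lum were at only 0.130 and 0.012 CPM. Tubule epithelial markers went from 3689 to 3846 CPM to 6553 to 6825 CPM, with 4 of 10 higher and 5 lower. Most of that sum was Krt8 (mean 1582 to 3615 CPM) and Krt18 (812.4 to 1783 CPM), while Epcam (285.3 to 301.6 CPM) was slightly higher, Cdh1 (650.5 to 617.6 CPM) was slightly lower and Aqp2, which marks the collecting duct, was at 0 in all 4 libraries with TGF-β alone. Macrophage and leukocyte markers went from 358.8 to 392.8 CPM to 209.5 to 247.5 CPM (3 of 10 higher, 7 lower), endothelial markers from 53.7 to 60.9 CPM to 102.8 to 113.3 CPM (5 of 7 higher, 2 lower) and podocyte markers from 122.4 to 130 CPM to 97.2 to 103.5 CPM (2 of 4 higher, 2 lower). These shifts ran alongside every Hox difference below, and their part in it was not tested. In bulk RNA, fewer cells of a type and less RNA per cell cannot be told apart.

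Of the 39 Hox genes 33 passed the filter on low counts, and 24 of these were called at an edgeR adjusted p under 0.05, 6 higher and 18 lower with chaetocin. Over all 14608 genes tested, 80.7% were called, 42% higher and 38.8% lower, so a share of 72.7% called among Hox genes lies near and below the background and is no result about the family. The median log2 fold change was -0.22 over the 33 Hox genes and 0.02 over all genes. With a fitted fold of at least 2 as well, 2 of the 33 Hox genes were higher, where 19.7% of all genes were. Lower by that fold were 5 of the 33, where 4.88% of all genes were. CPM values of the groups did not overlap for 20 of the 33 Hox genes, against 74.7% of all genes. In 4 of the 33 chaetocin lay above, against 39% of all genes, and in 16 of the 33 below, against 35.7%. The 2 higher genes past that fold were Hoxd10 and Hoxd13, and the 5 lower ones were Hoxa2, Hoxa3, Hoxa4, Hoxb3 and Hoxc11.

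The direction differed by cluster and by position. Cluster A had 1 gene higher, 6 lower and 3 not called, with a median of -0.23. Cluster B had 0 higher, 6 lower and 2 not called (median -0.30), and C had 0 higher, 5 lower and 3 not called (median -0.49). Cluster D had 5 higher, 1 lower and 1 not called, with a median of 0.43. Hoxd13 is among these 5 and among the posterior genes below. It passed the filter through its chaetocin libraries alone, so only a higher value was open to it. By position, the anterior genes, numbered 1 to 3, had 0 higher, 5 lower and 1 not called (median -1.06). The counts by cluster and position and the correlations below leave out the 6 genes that did not pass the filter. Among these is Hoxd1, an anterior gene that went the other way, from 3 reads with TGF-β alone to 41 with chaetocin. Central genes, numbered 4 to 8, had 1 higher, 7 lower and 7 not called (median -0.08). Posterior genes, numbered 9 to 13, had 5 higher, 6 lower and 1 not called (median -0.01), and the 5 comprised 4 of cluster D and Hoxa11. Across the 33 genes the log2 fold change and the paralog number had a Pearson r of 0.52 and a Spearman rho of 0.48. These include Hoxd13, whose fitted value depends on the prior count, and over the 30 genes above 1 CPM with TGF-β alone, which leave it out, r was 0.42 and rho 0.32. Over the 26 genes of clusters A to C, r was 0.36 and rho 0.26. Within clusters r and rho were 0.68 and 0.72 in A (10 genes), 0.51 and 0.29 in B (8), -0.30 and -0.24 in C (8) and 0.77 and 0.89 in D (7). The cluster D values include Hoxd13, and none was formed without it. Cluster C did not share the sign of the others. Genes are not independent replicates, and all of these points come from the same 8 libraries.

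**Figure D1:**
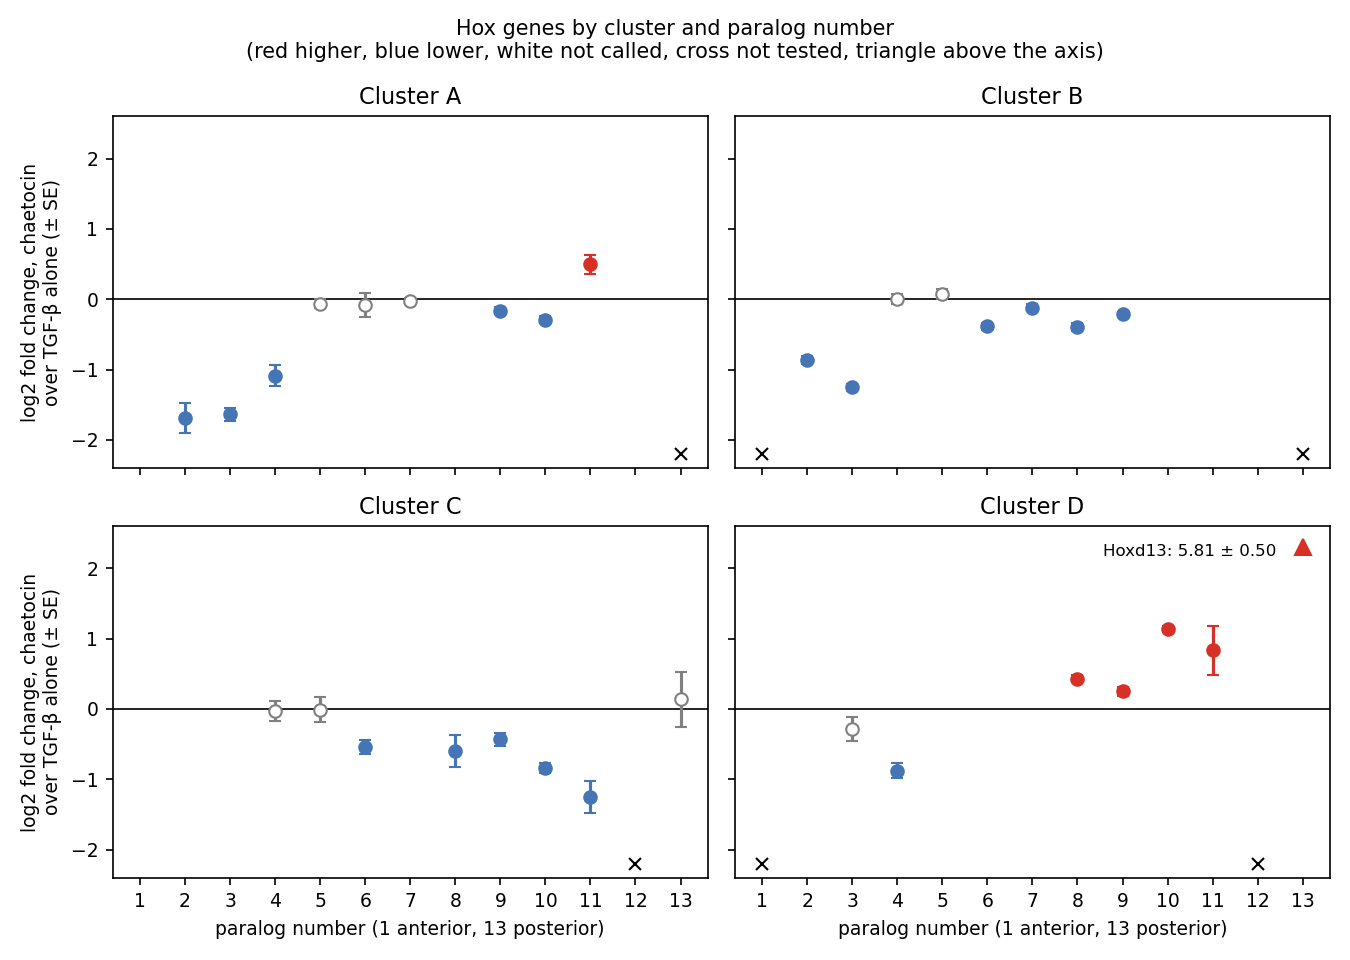
Log2 fold change of chaetocin over TGF-β alone, with its standard error, against the paralog number of Hox genes, in a panel for each cluster; red points were called higher, blue points lower and white points were not called, and crosses mark genes that were not tested. Hoxa2, Hoxa3, Hoxb2 and Hoxb3 lie lowest in their panels, cluster D runs from -0.87 at Hoxd4 to 1.13 at Hoxd10, and Hoxd13, at 5.81, is drawn as a triangle because it lies above the axis.

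Cluster A lies on the minus strand of chromosome 6, with Hoxa2 at chr6:52162417-52164831 and Hoxa13 at chr6:52257694-52260880 in GRCm38. Hoxa2, Hoxa3 and Hoxa4 were lower with chaetocin. Hoxa2, which sets the identity of the second pharyngeal arch, had 3.72, 2.83, 3.11 and 3.17 CPM with TGF-β alone and 1.41, 0.703, 0.8 and 0.893 CPM with chaetocin, with no overlap. It was 3.22-fold lower with chaetocin (log2 fold change -1.69 ± 0.21 SE, adjusted p = 5.4e-08 by edgeR). Hoxa3, needed for the thymus and parathyroid, had 13.9, 13.4, 14.9 and 13.8 CPM with TGF-β alone and 4.44, 4.54, 4.87 and 4.15 CPM with chaetocin. Every chaetocin library of Hoxa3 lay below every library with TGF-β alone, and the gene was 3.11-fold lower (log2 fold change -1.64 ± 0.09 SE, adjusted p = 5.5e-15 by edgeR). Hoxa4, its neighbour, had 4.78, 5.62, 5.33 and 5.28 CPM with TGF-β alone and 2.48, 2.24, 3.27 and 1.91 CPM with chaetocin, again with no overlap, and was 2.12-fold lower (log2 fold change -1.09 ± 0.15 SE, adjusted p = 3.4e-07 by edgeR).

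Hoxa5, Hoxa6 and Hoxa7 were not called by edgeR on counts. Hoxa5, a gene of the respiratory tract and the cervical skeleton, had 18.4, 17.5, 17.9 and 16 CPM with TGF-β alone and 16.7, 17.1, 15.5 and 17.4 CPM with chaetocin. Hoxa6 had 3.17, 3.71, 3.85 and 3.65 CPM with TGF-β alone and 3.67, 3.39, 2.13 and 4.27 CPM with chaetocin, where chaetocin replicate 3 was the lowest and replicate 4 the highest of all 8. Hoxa7 had 53.7, 50.8, 52.6 and 55.4 CPM with TGF-β alone and 52.1, 52.6, 48.6 and 54.8 CPM with chaetocin. The groups overlapped for all 3 genes, with log2 fold changes of -0.06 (SE 0.07), -0.08 (SE 0.17) and -0.03 (SE 0.04). Further along, Hoxa9, known as a partner of Meis1 in leukaemia, had 41.5, 37, 40.7 and 37.3 CPM with TGF-β alone and 35.9, 36.6, 33.6 and 33.4 CPM with chaetocin. Hoxa10, which patterns the lumbar region and the uterus, had 52.7, 51.3, 53.1 and 49.8 CPM with TGF-β alone and 44.8, 43.6, 37.4 and 42.7 CPM with chaetocin. Both were lower by small amounts without overlap, Hoxa9 (log2 fold change -0.16 ± 0.05 SE, adjusted p = 0.00460 by edgeR) and Hoxa10 (log2 fold change -0.29 ± 0.05 SE, adjusted p = 3.9e-06 by edgeR). Hoxa9 was no longer called when libraries were scaled by total count (adjusted p = 0.371). Hoxa11, a gene of the forearm and of the nephron-forming mesenchyme, had 3.12, 3.2, 3.36 and 3.3 CPM with TGF-β alone and 4.87, 4.35, 4.6 and 4.4 CPM with chaetocin. It was the only tested gene of clusters A to C called higher (log2 fold change 0.49 ± 0.13 SE, adjusted p = 0.00151 by edgeR), and its groups did not overlap.

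Cluster B, on the plus strand of chromosome 11, runs from Hoxb13 at chr11:96194316-96197447 to Hoxb1 at chr11:96365752-96368256 and held the highest levels. Hoxb9, a gene of the thoracic skeleton, was the most abundant Hox gene per length, at 62.8 ± 0.603 FPKM (fragments scaled to gene length and depth, SD, n = 4) with TGF-β alone and 58.5 ± 2.15 with chaetocin. In CPM it had 167, 168, 169 and 167 CPM with TGF-β alone and 152, 144, 140 and 141 CPM with chaetocin, a small difference without overlap (log2 fold change -0.22 ± 0.03 SE, adjusted p = 1.3e-07 by edgeR). Hoxb2, a hindbrain gene, had 48.2, 54.1, 54.2 and 50.3 CPM with TGF-β alone and 30, 30.7, 26.7 and 25.6 CPM with chaetocin. Hoxb3 had 56.8, 57, 56.8 and 54.7 CPM with TGF-β alone and 25.7, 24.3, 21.3 and 22.6 CPM with chaetocin. Neither gene overlapped between the groups, and Hoxb2 was 1.82-fold lower (log2 fold change -0.86 ± 0.05 SE, adjusted p = 4.7e-14 by edgeR) while Hoxb3 was 2.38-fold lower (log2 fold change -1.25 ± 0.05 SE, adjusted p = 1.5e-18 by edgeR). Hoxb4, used to expand blood stem cells, had 19.2, 17.7, 16.3 and 17.4 CPM with TGF-β alone and 18.9, 16.5, 17.5 and 17.7 CPM with chaetocin. Hoxb5, a gene of the enteric nervous system, had 13, 16.7, 15 and 14.4 CPM with TGF-β alone and 16.1, 15.8, 15.7 and 14.4 CPM with chaetocin. Both overlapped, with log2 fold changes of 0.01 (SE 0.07) and 0.07 (SE 0.08), and neither was called although Hoxb4 is the next gene after Hoxb3.

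Beyond Hoxb5 the differences in cluster B were small. Hoxb6 had 41.2, 40.5, 40.6 and 42.4 CPM with TGF-β alone and 34.4, 30.5, 29.6 and 30.8 CPM with chaetocin. Hoxb8, which acts in myeloid progenitors, had 49.2, 49, 46.4 and 43.4 CPM with TGF-β alone and 37.7, 37.5, 32.3 and 34.6 CPM with chaetocin. Both were lower without overlap, Hoxb6 (log2 fold change -0.39 ± 0.05 SE, adjusted p = 7.5e-08 by edgeR) and Hoxb8 (log2 fold change -0.40 ± 0.05 SE, adjusted p = 1.1e-07 by edgeR). Hoxb7, whose promoter is widely used to mark the ureteric bud and collecting duct, had 34.8, 34, 33.5 and 35.4 CPM with TGF-β alone and 30.8, 34.8, 30.6 and 30.4 CPM with chaetocin. Chaetocin replicate 2 lay among the libraries with TGF-β alone, so the groups overlapped (log2 fold change -0.12 ± 0.05 SE, adjusted p = 0.0294 by edgeR). The Hoxb7 call was lost without TGF-β replicate 4 (adjusted p = 0.0622) and without chaetocin replicate 1 (0.0824), 3 (0.0628) or 4 (0.0727), and under DESeq2 (0.105).

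In cluster C, on the plus strand of chromosome 15 from Hoxc13 at chr15:102921103-102928814 to Hoxc4 at chr15:103018934-103036852, the genes from Hoxc6 to Hoxc11 were lower. Hoxc10, a gene of the lumbar cord and hindlimb, had 27.7, 27.1, 28.2 and 26.7 CPM with TGF-β alone and 15.8, 14.7, 13.4 and 17.2 CPM with chaetocin. Hoxc11, its neighbour and a paralog of Hoxa11, had 2.16, 2.11, 2.22 and 1.85 CPM with TGF-β alone and 1.07, 0.895, 0.667 and 0.765 CPM with chaetocin. Neither overlapped, and Hoxc10 was 1.79-fold lower (log2 fold change -0.84 ± 0.06 SE, adjusted p = 2.7e-12 by edgeR) and Hoxc11 2.39-fold lower (log2 fold change -1.25 ± 0.23 SE, adjusted p = 1.4e-05 by edgeR). Hoxc9, which sets thoracic motor neuron identity, had 11.9, 12.5, 11.8 and 11.3 CPM with TGF-β alone and 10.5, 7.86, 8.47 and 7.91 CPM with chaetocin. Hoxc6, a thoracic gene, had 9.6, 9.17, 8.15 and 10.2 CPM with TGF-β alone and 6.96, 5.94, 6.34 and 6.12 CPM with chaetocin. Hoxc8, a gene of the brachial cord, had 1.47, 2.11, 1.73 and 2.2 CPM with TGF-β alone and 1.45, 1.02, 1.4 and 1.02 CPM with chaetocin. These 3 were lower as well and did not overlap, with log2 fold changes of -0.43 (SE 0.09), -0.54 (SE 0.10) and -0.60 (SE 0.22). The edgeR adjusted p was 1.7e-04 for Hoxc9, 3.0e-05 for Hoxc6 and 0.0169 for Hoxc8. The Hoxc8 call was lost without TGF-β replicate 4 (adjusted p = 0.0599), chaetocin replicate 2 (0.0510) or chaetocin replicate 4 (0.0504).

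At the anterior end of cluster C, Hoxc4 had 3.12, 3.51, 3.26 and 3.52 CPM with TGF-β alone and 3.16, 3.07, 3.67 and 3.32 CPM with chaetocin. Hoxc5 had 2.85, 2.94, 3.41 and 2.24 CPM with TGF-β alone and 3.38, 2.88, 2.47 and 2.42 CPM with chaetocin. Neither was called, and the groups overlapped (log2 fold changes -0.03, SE 0.15, and -0.01, SE 0.18). Hoxc13, a hair follicle gene at the other end, had 0.597, 0.464, 0.593 and 0.22 CPM with TGF-β alone and 0.726, 0.256, 0.6 and 0.383 CPM with chaetocin, also with overlap (log2 fold change 0.14, SE 0.39). Its standard error was the largest among the genes not called.

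Cluster D, on the plus strand of chromosome 2 from Hoxd13 at chr2:74668310-74671599 to Hoxd1 at chr2:74762980-74765142, held a lower gene, Hoxd4, next to a higher one, Hoxd8. Hoxd4, a hindbrain gene that responds to retinoic acid, had 7.9, 9.69, 9.43 and 10.3 CPM with TGF-β alone and 5.72, 4.98, 4.8 and 4.66 CPM with chaetocin, and its groups did not overlap. It was 1.83-fold lower (log2 fold change -0.87 ± 0.11 SE, adjusted p = 7.4e-08 by edgeR). Hoxd8 had 31.9, 30.3, 30.5 and 31.1 CPM with TGF-β alone and 42.2, 42.1, 38.6 and 44 CPM with chaetocin, and all 4 chaetocin libraries lay above all 4 others. It was 1.35-fold higher (log2 fold change 0.43 ± 0.05 SE, adjusted p = 5.2e-09 by edgeR). Hoxd10, a gene of the lumbar cord and hindlimb and a paralog of Hoxa10 and Hoxc10, had 35.5, 34.3, 34.2 and 37.1 CPM with TGF-β alone and 76.3, 78.3, 72.2 and 83.2 CPM with chaetocin. Its chaetocin libraries lay far above the rest, 2.19-fold higher on average (log2 fold change 1.13 ± 0.04 SE, adjusted p = 7.5e-19 by edgeR). Hoxd9, between them, had 24, 25.2, 26.9 and 25.7 CPM with TGF-β alone and 31.2, 33.1, 25.3 and 30.9 CPM with chaetocin. Chaetocin replicate 3 of Hoxd9 lay among the libraries with TGF-β alone, and the gene was 1.19-fold higher (log2 fold change 0.25 ± 0.06 SE, adjusted p = 8.6e-04 by edgeR).

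Hoxd3, next to Hoxd4, had 3.49, 4.59, 2.77 and 3.21 CPM with TGF-β alone and 3.16, 2.3, 3 and 2.93 CPM with chaetocin. Its groups overlapped and it was not called (log2 fold change -0.29 ± 0.17 SE, adjusted p = 0.125 by edgeR), though without TGF-β replicate 3 it was called lower (log2 fold change -0.39, adjusted p = 0.0453). Hoxd11, a paralog of Hoxa11 that acts with it in the forearm and kidney, had 0.276, 0.412, 0.395 and 0.528 CPM with TGF-β alone and 0.427, 0.959, 0.867 and 0.765 CPM with chaetocin. The groups overlapped, and the call (log2 fold change 0.84 ± 0.35 SE, adjusted p = 0.0314 by edgeR) rested on few reads. It was lost without TGF-β replicate 1 (adjusted p = 0.0988), 2 (0.0526) or 3 (0.0583), without chaetocin replicate 2 (0.105), 3 (0.0788) or 4 (0.0601), and under DESeq2 (0.0672). Hoxd8 to Hoxd10 thus lay well above the detection limit in counts, and Hoxd11 to Hoxd13 lay nearer to it.

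**Figure D2:**
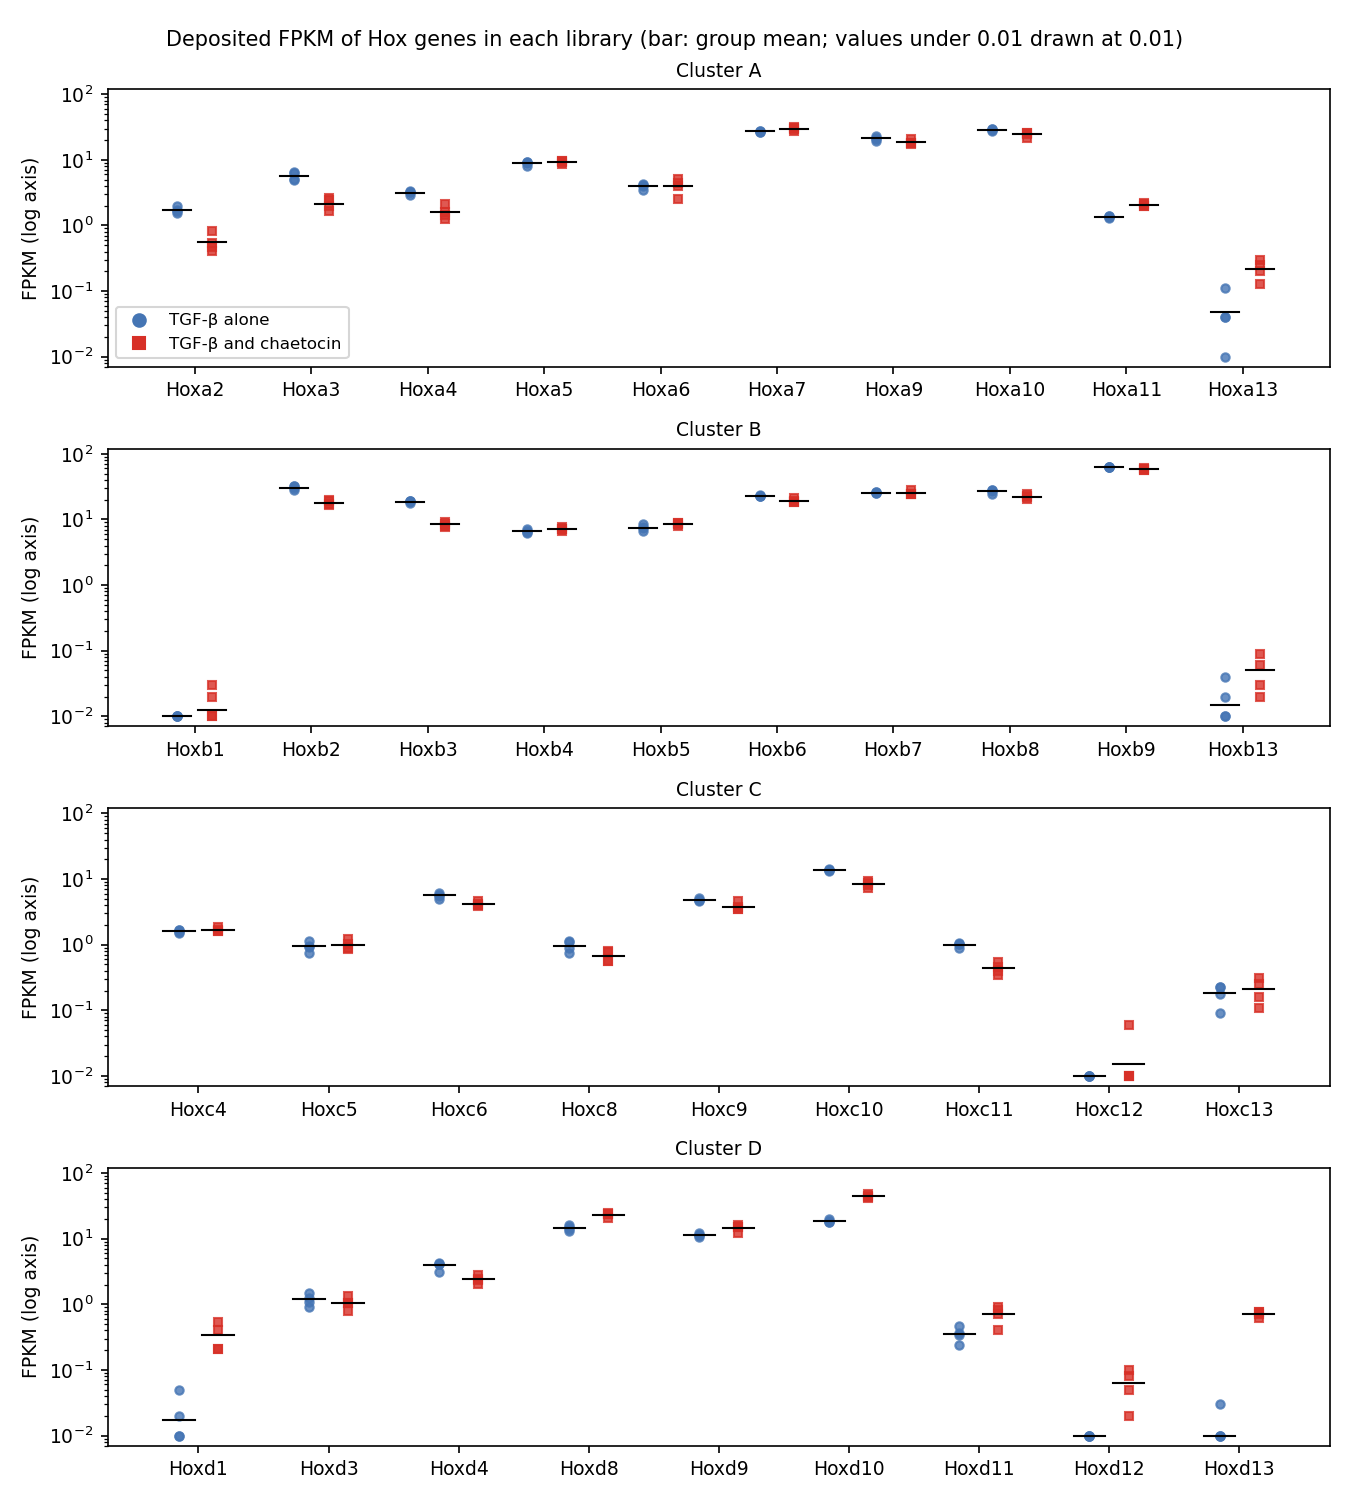
Deposited FPKM of Hox genes in each library on a log axis, with circles for TGF-β alone, squares for TGF-β and chaetocin and a bar for each group mean; values under 0.01 are drawn at 0.01. Hoxb9 is the highest gene, at 62.3 to 63.6 FPKM with TGF-β alone, and Hoxd10 shows the widest gap among genes above 10 FPKM in both groups.

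Reads from the genes that were silent or nearly so appeared at both ends of cluster D and at the posterior end of A. Hoxd13, a gene of digits and the genital tract, had 0, 0, 0 and 2 reads in the libraries with TGF-β alone and 35, 26, 27 and 29 with chaetocin. Its rate relative to library size was 70.6 times higher (95% counting interval 19.1 to 590). Its fitted log2 fold change of 5.81 ± 0.50 SE (adjusted p = 3.5e-11 by edgeR) depends on the prior count added to so few reads, and was 7.99 without TGF-β replicate 4. Hoxd13 passed the filter through its chaetocin libraries alone. Hoxd12, its neighbour in the digits, had 0 reads in all 4 libraries with TGF-β alone and 1, 3, 2 and 4 with chaetocin, at least 4.02-fold higher with 3 counts over the group as the floor. Like those for Evx2 and Calcoco2 below, this bound takes the chaetocin reads as exact and leaves out their counting error. Hoxd1, at the anterior end and known from pain-sensing neurons, had 2, 0, 0 and 1 reads and then 9, 15, 11 and 6, a ratio of 16.5 (5.26 to 83.3). Hoxa13, the paralog of Hoxd13, had 6, 0, 2 and 2 reads and then 7, 9, 7 and 11, a ratio of 4.10 (1.98 to 9.31). All chaetocin libraries lay above all others in CPM for these 4 genes. Among all genes past the filter 39% did so, but Hoxd12, Hoxd1 and Hoxa13 did not pass it.

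Hoxb13, a gene of the prostate and tail, had 1, 0, 2 and 0 reads with TGF-β alone and 1, 1, 2 and 3 with chaetocin, a ratio of 2.82 with an interval from 0.643 to 16.9. Hoxb1 had 0 reads in the first 4 libraries and 2 in all with chaetocin, and Hoxc12 had 0 and then 1, so no fold is given. Hoxd12, Hoxd1, Hoxa13, Hoxb13, Hoxb1 and Hoxc12 are the 6 genes that did not pass the filter. Without a filter, over 19608 genes, edgeR called Hoxd1 (adjusted p = 1.0e-06), Hoxa13 (0.00180) and Hoxd12 (0.00278) higher, and it did not call Hoxb13, Hoxb1 or Hoxc12. The median log2 fold change over those 19608 genes was 0.21, against 0.02 over the genes past the filter. Whether these Hox genes stand out from other genes with few reads was not tested. The intervals cover counting error only.

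**Figure D3:**
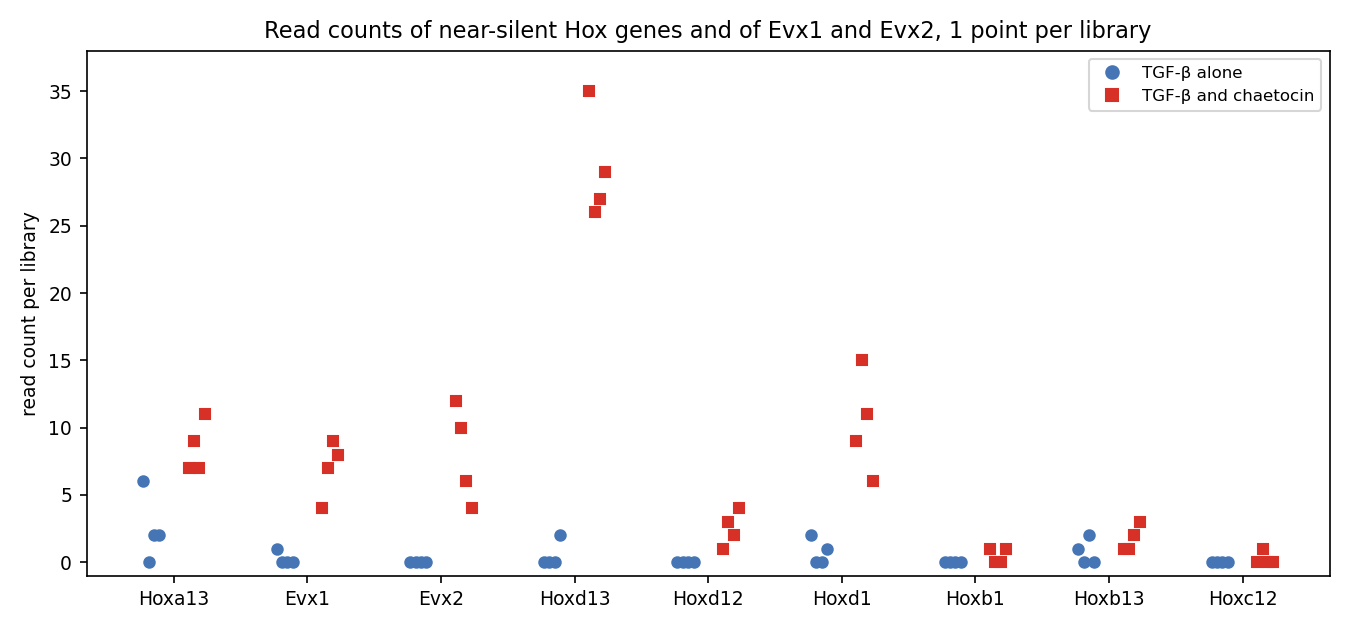
Read counts of the near-silent Hox genes and of the Evx genes next to clusters A and D, with 1 point per library, circles for TGF-β alone and squares for TGF-β and chaetocin. Hoxd13 has 26 to 35 reads in each chaetocin library and 0 to 2 in the others, while Hoxb1, Hoxb13 and Hoxc12 have at most 3 in any library.

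The homeobox genes Evx1 and Evx2 lie beyond Hoxa13 and Hoxd13 and are related to the Hox genes. Evx2, at chr2:74652991-74659557, had 0 reads with TGF-β alone and 12, 10, 6 and 4 with chaetocin, at least 12.9-fold higher. Evx1, at chr6:52313498-52318378, had 1, 0, 0 and 0 reads and then 4, 7, 9 and 8, a ratio of 33.8 (5.59 to 1382). The call without a filter had an edgeR adjusted p of 3.2e-07 for Evx2 and 9.4e-06 for Evx1. Of 20 ParaHox and other homeobox genes listed, 16 did not pass the filter and all 4 that did were higher, namely Dlx1, which lies on the same chromosome as cluster D (log2 fold change 5.53), Dlx2 (4.18), En2 (2.97) and Dlx3 (2.14). These 4 genes were close to 0 with TGF-β alone, so their passing the filter rested on the chaetocin libraries. Their shared direction was thus set by the filter and is no result about the list. Of all genes tested, 42% were higher.

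Among the other genes next to the clusters both directions were seen. Of 21 flanking genes tested 8 were higher, 9 lower and 4 not called, a share called near the 80.7% of all genes, with a median of -0.05. Beyond the anterior end of cluster A, Skap2 went from 97.4 ± 1.62 to 63.9 ± 1.14 CPM (log2 fold change -0.61). Mtx2, beyond the anterior end of cluster D, was slightly higher (0.21), and Lnpk, beyond its posterior end, was not called (0.05, SE 0.06). Near cluster B, Calcoco2 had 0 reads in every library with TGF-β alone and 28, 16, 22 and 21 with chaetocin, at least 35-fold higher. Ttll6, on the same side, had 1, 0, 1 and 3 reads and then 26, 9, 11 and 29, a ratio of 18.1 (7.42 to 57.4). Calcoco2 and Ttll6 are among the 8 higher genes. They passed the filter through their chaetocin libraries alone, so only a higher value was open to them. Of the other genes next to cluster B, Snf8 (0.42), Atp5g1 (0.25) and Skap1 (0.40) were higher and Ube2z (-0.19) was lower. Near cluster C, Smug1 was lower (-0.24), Calcoco1 was lower (log2 fold change -1.05), and Cbx5, which encodes a heterochromatin protein that binds methylated H3 lysine 9, was higher (0.57). Hnrnpa3 (0.23) was higher and Atf2 (-0.48) lower, both on the chromosome of cluster D.

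Some exons are shared with other transcripts, and the sources used here do not say if counting took strand into account. In GENCODE vM21, 2250 of the 4251 exonic bases of Hoxb3 and 953 of the 3488 of Hoxb2 lie opposite the exons of Hoxb3os. For Hoxa3, 1529 of 6014 bases lie opposite Hoxaas2, Hoxaas3 and other transcripts, and for Hoxa11, 800 of 2287 lie opposite Hoxa11os. Reads of such antisense transcripts, none of which was analysed here, cannot be told apart from those of the Hox gene. Hoxd3 and Hoxd4 share exons with each other and with the read-through gene Gm28230, which was not called (log2 fold change 0.10, SE 0.17), and Hoxa2 and Hoxa3 share some with Gm28308, which fell by 1.64 on the log2 scale (SE 0.42, adjusted p = 8.3e-04 by edgeR) from 12 to 20 reads per library to 2 to 8. How reads of shared exons were split is not given, so the values of Hoxd3, Hoxd4, Hoxa2, Hoxa3, Hoxb2, Hoxb3 and Hoxa11 are uncertain to that extent. Smaller overlaps were found for Hoxd10 (104 of 1816 bases) and Hoxd11 (455 of 4212) with Gm28309, for Hoxc5 and Hoxc10 with each other (166), and for Hoxa9 with Mir196b (85). Opposite other transcripts lie 586 of 2876 bases of Hoxa7, 255 of 1594 of Hoxa4 and 100 of 2786 of Hoxb5, and the same limit holds for these genes.

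Summed over the 39 genes, Hox expression differed in makeup between the groups. The sum was 386 ± 4.52 FPKM (SD, n = 4) with TGF-β alone and 370.2 ± 15.9 with chaetocin, with overlapping libraries at 381.4 to 390.1 and 348.3 to 383.6. In CPM, which is not divided by length and uses TMM-adjusted sizes, it was 791.7 ± 5.55 and 693.8 ± 28.4, lower with chaetocin in every library. FPKM is scaled to total counts, while the TMM factors were 0.957 to 0.964 with TGF-β alone and 1.037 to 1.043 with chaetocin. This scaling alone places ratios of chaetocin over TGF-β alone lower in CPM than in FPKM, for every gene and sum. Cluster D held 12.6, 13.3, 12.5 and 13.7% of the sum with TGF-β alone and 23.0, 23.7, 23.0 and 25.0% with chaetocin. Cluster B went from 52.3% to 45.3%, cluster C from 7.49% to 5.48% and cluster A from 27.2% to 25.5%, all without overlap. In shares of the summed CPM cluster A did overlap, at 24.2 to 25.3% and 23.8 to 24.4%. The genes Hoxd8 to Hoxd13 together went from 45.2 ± 1.61 to 83.8 ± 5.52 FPKM, and Hoxd1 to Hoxd4 went from 5.10 ± 0.50 to 3.81 ± 0.40 FPKM. Anterior genes of all clusters went from 15.7% to 8.84% of the sum, central ones went from 41.7% to 43.4% and posterior ones from 42.7% to 47.8%. None of the shares by position overlapped between the groups. The posterior sums did overlap, at 161.7 to 167.7 and 165 to 182 FPKM, and in CPM at 360.8 to 370.8 and 339.6 to 375.7. Central sums were 160.9 ± 2.62 and 160.5 ± 6.25 FPKM, and in CPM they were lower, at 288 to 294.3 and 252.5 to 275.7. Anterior sums went from 60.42 ± 2.38 to 32.75 ± 2.61 FPKM, so the other shares are of a total with a smaller anterior part. No test was run on the sums. Dividing counts by FPKM shows the gene length behind each value, and for 14 of 26 genes above 1 FPKM it was the same in all libraries within 1%. For 9 it spread by over 5%, and for Hoxa9 (1.70 to 1.83 kb, then 1.85 to 2.07 kb) and Hoxa10 (1.70 to 1.74 kb, then 1.76 to 1.81 kb) the groups did not overlap, so FPKM and count differences are not the same quantity for these genes. The spread was widest for Hoxa3 (41.6%) and next for Hoxd8 (24.8%). The log2 ratio of mean FPKM for Hoxd8 was 0.66, against a fitted 0.43 on counts. These values differ in scaling as well as in length. For Hoxd10, at 1.82 kb in every library, they were 1.25 and 1.13. In summed CPM, cluster D held 13.0 to 13.8% with TGF-β alone and 22.3 to 24.3% with chaetocin.

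**Figure D4:**
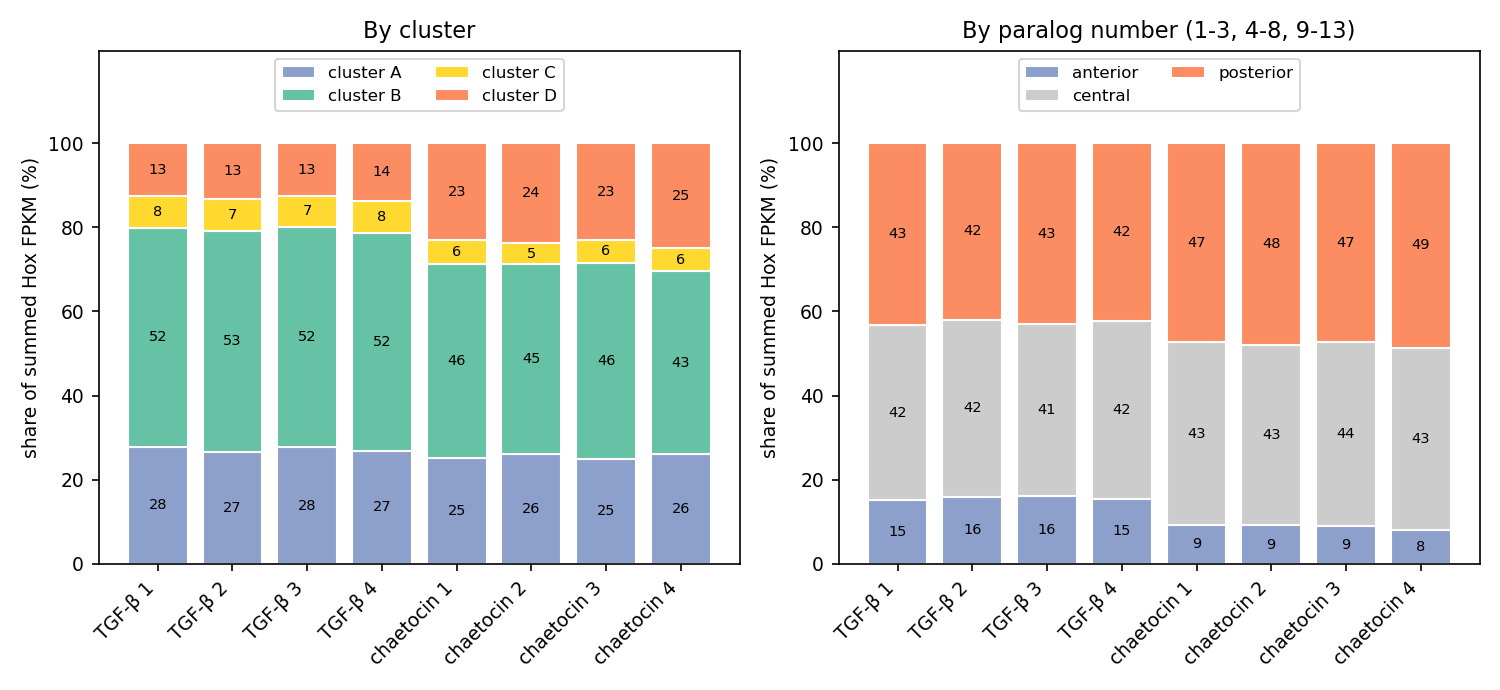
Share of the summed FPKM of all Hox genes in each library, in percent, stacked by cluster on the left and by paralog number on the right. Cluster D takes 12.5 to 13.7% in the 4 libraries with TGF-β alone and 23.0 to 25.0% in the 4 with chaetocin.

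Paralogs with the same number, which share much of their homeodomain, did not all move the same way. Of the genes numbered 10, Hoxa10 and Hoxc10 were lower and Hoxd10 higher, and their sum went from 61.3 ± 0.93 to 77.1 ± 4.84 FPKM. Of those numbered 11, Hoxc11 was lower, Hoxa11 and Hoxd11 were higher, and the sum went from 2.71 ± 0.10 to 3.21 ± 0.10 FPKM. In the number 3 group, where Hoxa3 and Hoxb3 both fell, the sum went from 25.6 ± 0.50 to 11.6 ± 1.14 FPKM. The number 9 group, the most abundant, went from 100.3 ± 1.75 to 95.4 ± 4.32 FPKM, with overlap. In CPM, with its TMM scaling, the number 9 sums did not overlap, at 241.2 to 248.5 and 207.3 to 229.8. Those of number 11 did overlap, at 5.56 to 5.98 and 5.93 to 6.37.

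Ratios of counts within a library need no scaling, and they were formed for 29 pairs of neighbours and 33 pairs of paralogs, a set chosen after the fold changes were seen, with 0.5 added to each count. The ratio of Hoxc10 to Hoxd10 went from 0.778 (range 0.719 to 0.825) to 0.197 (range 0.186 to 0.207), and that of Hoxa10 to Hoxd10 went from 1.47 (range 1.34 to 1.55) to 0.543 (range 0.513 to 0.587). Hoxd10 thus passed Hoxa10 in counts in all 4 chaetocin libraries and in none with TGF-β alone. The ratio of Hoxa11 to Hoxc11 went from 1.55 (range 1.44 to 1.78) to 5.29 (range 4.49 to 6.62). Between neighbours, Hoxd4 to Hoxd8 went from 0.301 (range 0.248 to 0.333) to 0.121 (range 0.106 to 0.136), and Hoxb3 to Hoxb4 went from 3.19 (range 2.95 to 3.48) to 1.33 (range 1.22 to 1.47). Hoxa4 to Hoxa5 went from 0.302 (range 0.261 to 0.332) to 0.147 (range 0.112 to 0.212). By contrast, Hoxb4 to Hoxb5 was 1.20 and 1.14, with overlap. The groups did not overlap for 34 of the 62 pairs. A two-sided exact permutation test of each pair gave 0.0286 for these 34, the smallest p that 4 against 4 libraries allow, and 0.0521 after Benjamini-Hochberg adjustment over the 62, so no pair passed 0.05 after adjustment.

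**Figure D5:**
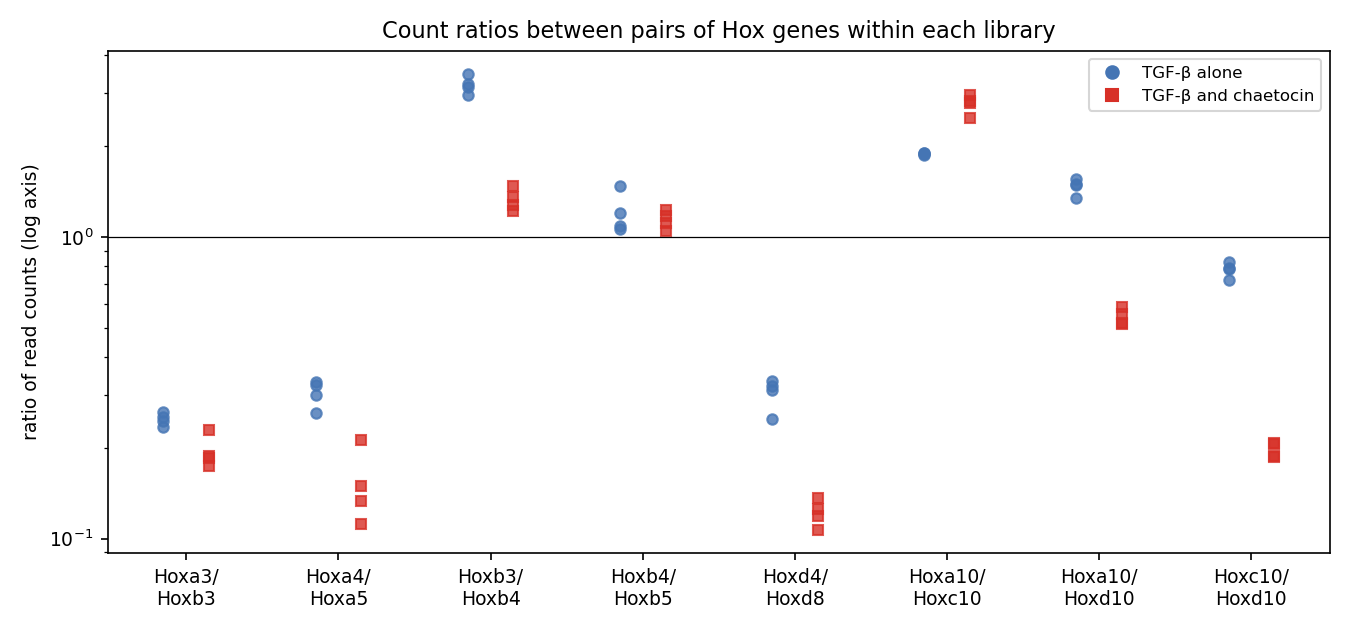
Ratio of read counts between pairs of Hox genes within each library, on a log axis with a line at equal counts, with circles for TGF-β alone and squares for TGF-β and chaetocin. The Hoxa10 to Hoxd10 ratio lies at 1.34 to 1.55 with TGF-β alone and at 0.513 to 0.587 with chaetocin, while Hoxb4 to Hoxb5 overlaps.

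Cofactors that bind DNA together with Hox proteins were called in both directions. All 9 genes of the Pbx, Meis and Pknox families were called, 3 higher and 6 lower, with a median log2 fold change of -0.42. Of all genes tested, 80.7% were called and 38.8% were lower. Meis2 (-0.94) and Pbx2 (-0.73) were among the lower ones. Pbx4, at 0.909 CPM with TGF-β alone, was higher by 1.92, Meis3 by 0.52 and Pbx3 by 0.23 on the log2 scale.

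Of the complexes that keep Hox genes on, 9 of 16 Trithorax and MLL genes were higher, 4 lower and 3 not called (median 0.18). Kdm6b, a demethylase of H3 lysine 27, was higher (1.48), as were the methyltransferases Kmt2a (0.60) and Dot1l (0.50). Ash2l (-0.93), Kdm6a (-0.80) and Mllt1 (-0.45) were lower. Of 30 Polycomb genes, which act to keep Hox genes off, 9 were higher, 16 lower and 5 not called (median -0.12). Rnf2, a catalytic subunit of the first Polycomb complex, was lower (-0.82), with Pcgf3 (-0.51) and Phc1 (-0.97). Pcgf2 (1.21), Cbx7 (1.01) and the methyltransferase Ezh2 (0.35) were higher. CTCF and cohesin genes, which fold the clusters into domains, had 0 of 10 higher, 8 lower and 2 not called, with Pds5a (-0.44), Nipbl (-0.35) and Pds5b (-0.46) at the smallest p-values. These shares called, between 80 and 83.3%, lie near the 80.7% of all genes.

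Retinoic acid, a signal that turns on anterior Hox genes in the embryo, is made and sensed by genes of which 15 were tested, with 5 higher, 7 lower and 3 not called (median -0.09). Rdh10, which makes retinal from retinol, went from 256 ± 6.23 to 73.8 ± 3.79 CPM (log2 fold change -1.79). Dhrs3, a retinal reductase, was lower (-2.11), and the receptor Rarg (1.69), the oxidising enzyme Aldh1a1 (3.04) and the retinol transporter Stra6 (1.54) were higher. Among 14 genes that pattern the embryonic kidney, where Hox genes numbered 11 act, 4 were higher, 6 lower and 4 not called (median -0.36). Sall1 (-0.92), Pax8 (-0.49) and Pax2 (-0.63) were lower, and Eya1 (3.78), Ret (2.18) and Itga8 (1.76) were higher. The shares called, 80% of the retinoic acid genes and 71.4% of the kidney genes, lie near and below the 80.7% of all genes.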

How the data were processed

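Per the labels' protocols, RNA was purified with an RNeasy kit and sequencing libraries with a SMARTER mRNA kit. Per the submitters' processing notes the reads were placed on GRCm38 (mm10), with an aligner and a counting program not given in the sources used here. The authors deposited whole-number read counts for 22274 genes in 8 libraries, which are not normalized, and FPKM values, which are divided by gene length and depth. Their table also gives the authors' mean FPKM, log2 ratio, p-values and FDR, none of which was used here. There were 0 columns of other samples.

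The deposited counts were tested with edgeR 4.0.16 (R 4.3.3), by quasi-likelihood F tests after filterByExpr and TMM scaling, with no covariate. Benjamini-Hochberg adjustment ran over all 14608 genes tested, a call needed an adjusted p under 0.05, and the standard error is the log2 fold change divided by the square root of F. The test was first run on simulated data. CPM values are counts divided by the TMM-scaled library size. Alternatives were DESeq2 1.42.0 and its size factors, total-count scaling, no filter, at least 1 CPM in 4 libraries, limma 3.58.1 on voom values and on log2 of FPKM plus 1 or 0.1 (with or without a filter of 1 FPKM in 4 libraries), a replicate block, a fold minimum of 2, and each library left out. All 39 Hox IDs and 22219 of all IDs were found in GENCODE vM21, and promoters came from RefSeq of GRCm38.p6. Replicates of a group differed by more than sampling noise, by a common coefficient of variation of only 2.94% in edgeR. As stated above, this spread may be technical.

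Hox genes are reported by cluster and paralog number, those past the filter with each library's value and the others with counts. Of each other list, up to 3 called genes per direction with the smallest p are named. A few genes that these rules would name are not reported here, though the counts, medians and sums over their lists include them. The members, the lists and the tests were chosen with earlier results of these data known.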

Additional observations from a re-analysis of the deposited data

Results flagged for a closer look

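In 3 of the 66 groups of 4 libraries examined, the highest or lowest library lay apart from the other 3 by more than Dixon's 95% critical value, and chance alone gives about 5% of groups. Hoxb3 was at 54.69 CPM in TGF-β replicate 4, where the other 3 libraries with TGF-β alone were at 56.75 to 56.96 CPM, and all 4 lay above every chaetocin library. Hoxb7 was at 34.83 CPM in chaetocin replicate 2, where the other 3 were at 30.42 to 30.8 CPM, which is why its groups overlapped. Hoxd13 was at 0.088 CPM (2 reads) in TGF-β replicate 4 and at 0 in the other 3 libraries with TGF-β alone.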

How the results depend on the processing

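Of the 24 Hox genes called, 24 kept call and sign with limma-voom, 23 with DESeq2 size factors, 22 with DESeq2 and 20 with total-count scaling, where Hoxa9, Hoxb7 and Hoxc8 were among those lost and Hoxb5 was gained. Total-count scaling moved the median of all genes from 0.02 to 0.14, and the calls over all genes from 6129 higher and 5662 lower to 7180 and 4514. It turned the sign of Hoxa5, Hoxa6, Hoxa7, Hoxc4 and Hoxc5 only, none of them called. Requiring a fold of 2 or more left calls of 2 higher and 5 lower among Hox genes and 2884 and 713 among all genes. On log2(FPKM + 1) with no filter 10 Hox genes were higher, as more genes were tested. Hoxa7, not called on counts (-0.03), was called higher by limma on FPKM, at 0.11. Its adjusted p was 0.0235 for either pseudocount and 0.0266 with no filter. FPKM is scaled to total counts, and total-count scaling also turned the sign of Hoxa7, without a call. The length behind its FPKM spread by 6.28% between libraries. The part of each was not tested. Leaving out each library in turn gave 5 to 6 Hox genes higher and 16 to 18 lower, and 6030 to 6276 and 5538 to 5677 over all genes. Same-numbered libraries did not deviate together (correlations -0.013 to 0.032, against -0.064 to 0.063 for unlike numbers). No pairing by number was thus seen, though so few libraries cannot exclude a weak one. A fit with the replicate number as a block gave 6 Hox genes higher and 18 lower, and 6105 and 5643 over all genes. At these depths genes under about 0.2 CPM cannot be compared in single libraries.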
